A study of Mus musculus with 2 samples.

Results

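The 8 genes described here, Trp73, Lhx1, Lhx5, Ebf2, Ebf3, Calb2, Ndnf and Nhlh2, were chosen by name as genes of Cajal-Retzius neurons by a rule that uses no measured value, though with earlier results of these data known. All 8 were matched by gene identifier among 43346 mouse genes measured by sequencing of total RNA longer than 200 nucleotides from mouse forebrain. The samples formed 1 group of healthy embryos of strain B6NCrl at embryonic day 15.5, of both sexes, with no treatment or mutation stated. Replicate 1 was a pool of 78 embryos and replicate 2 a separate pool of 62, and 10 ng of RNA, mixed with spike-in controls, went into each library. The expected counts, which are the estimated reads per gene, summed to 38720511 in replicate 1 and 35103430 in replicate 2.

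Cajal-Retzius neurons are among the earliest neurons of the cortex. They lie in its outermost layer, secrete the glycoprotein Reelin, which guides the layering of later-born neurons, and arise outside the main cortical neuroepithelium, in the cortical hem, the septum, the border of pallium and subpallium and the thalamic eminence. None of the 8 genes is confined to them: calretinin, the product of Calb2, is also made by interneurons and thalamic neurons, Lhx1 and Lhx5 are also expressed in diencephalon, and Trp73 also acts in multiciliated cells. In RNA from whole tissue the cells that made a transcript are not seen, and fewer cells of a type cannot be told apart from less RNA per cell.

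Trp73 encodes p73, a relative of the tumour suppressor p53, and is transcribed from an upstream and an internal start. Full-length forms from the upstream start carry the N-terminal transactivation domain, while N-truncated forms from the internal start lack it. The gene (ENSMUSG00000029026.12) spans chromosome 4, 154056253 to 154140208, on the minus strand of mm10 in the GENCODE M21 annotation, and its starts lie 43.0 kb apart. The coding bases that distinguish the longest full-length and N-truncated forms are shown because the main isoform result rests on them. They are read 5′ to 3′ from GENCODE transcripts, with the start codon in capitals. The full-length form has 61 codons of its own, in exons between chr4:154104320-154104895, and the N-truncated form has 13, at chr4:154096894-154096932.

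Trp73-204, full-length: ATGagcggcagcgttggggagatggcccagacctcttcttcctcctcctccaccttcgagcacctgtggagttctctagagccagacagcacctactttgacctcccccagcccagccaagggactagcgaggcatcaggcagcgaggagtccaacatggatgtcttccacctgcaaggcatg
Trp73-205, N-truncated: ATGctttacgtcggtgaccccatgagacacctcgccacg

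The 250 bases before the internal start, at chr4:154097174-154097423 in RefSeq's table for GRCm38.p6, are intronic to the full-length transcript and are printed 5′ to 3′ on the minus strand, with CG dinucleotides in capitals.

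Trp73 internal promoter: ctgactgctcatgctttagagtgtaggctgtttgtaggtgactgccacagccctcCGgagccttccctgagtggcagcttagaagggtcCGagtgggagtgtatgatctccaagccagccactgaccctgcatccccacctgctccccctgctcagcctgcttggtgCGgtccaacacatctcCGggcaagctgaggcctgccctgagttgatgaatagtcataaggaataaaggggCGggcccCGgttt

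This window held 6 CG dinucleotides, a motif that reads the same on both strands, and 58.4% G or C. The window of the same length before RefSeq's upstream start, at chromosome 4, 154139876 to 154140125, held 31 and 77.2%. Of 32851 promoter windows in the table, 92.1% held at least 1 CG, 49.6% held fewer than the internal window and 94.8% fewer than the upstream one. The upstream window is not printed, since it lies inside the first exon of Trp73-204 in GENCODE.

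The 8 genes spanned a wide range of abundance, led by the calcium buffer Calb2. Levels are given as TPM, the abundance of a gene's transcripts corrected for length and scaled to a common total per library, and all levels below are on that scale unless reads are named. Calb2 (ENSMUSG00000003657.8; chromosome 8, 110137502 to 110168210) stood at 66.0 TPM in replicate 1 and 70.7 in replicate 2, a mean of 68.3 ± 3.33 (SD, n = 2). It took 64.5 and 67.4% of the summed TPM of the 8 genes and was 121-fold above the lowest, Ebf3, in mean TPM. Without Calb2 the remaining 7 genes summed to 36.3 and 34.1 TPM. Calb2 lay above 87.9% of protein-coding genes in mean level.

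Among the transcription factors, Nhlh2 was highest. Nhlh2, a basic helix-loop-helix factor of young neurons (chromosome 3, 102010076 to 102015492), was at 15.7 and 16.3 TPM (16 ± 0.396), from 1196 and 1138 reads. The LIM-homeodomain factor Lhx5, which is needed for the development of Cajal-Retzius neurons (chromosome 5, 120431699 to 120441223), was at 5.99 and 5.30 TPM (5.64 ± 0.488). Trp73 followed at 4.59 and 4.91 TPM (4.75 ± 0.226), from 469 and 493 reads. In these TPM values the 3 genes kept their order in both libraries.

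The paralog of Lhx5, Lhx1 (chromosome 11, 84518284 to 84525535), was at 4.02 and 2.78 TPM (3.40 ± 0.877). Ndnf, a secreted neurotrophic factor that marks neurons of the outermost cortical layer (chromosome 6, 65671590 to 65712326), was at 3.46 and 2.06 TPM (2.76 ± 0.990). In both genes replicate 1 was the higher library. The early B-cell factor family member Ebf2 (chromosome 14, 67233292 to 67430918) was at 2.05 and 2.17 TPM (2.11 ± 0.0849). Its relative Ebf3 (chromosome 7, 137193673 to 137314445) was lowest, at 0.5 and 0.630 TPM (0.565 ± 0.0919), from 56 and 65 reads.

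**Figure D1:**
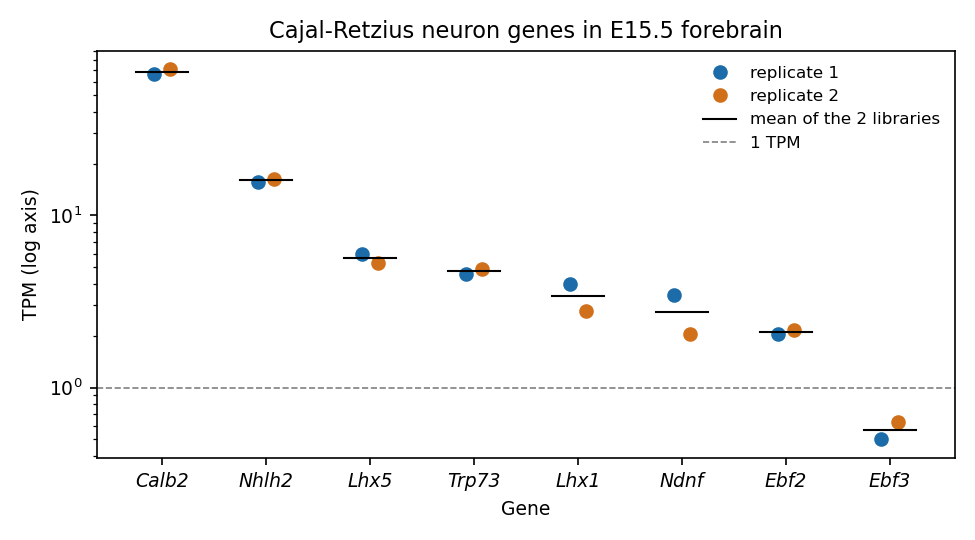
TPM of the 8 genes on a log axis, with 1 point per library, a bar for the mean and a dashed line at 1 TPM. Calb2 stands between 66.0 and 70.7, Lhx1 and Ndnf have the widest spread, and Ebf3 lies below 1 TPM in both libraries.

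Neighbours in this order were separated to different degrees. The libraries of Calb2 and Nhlh2 (4.28-fold), of Nhlh2 and Lhx5 (2.83-fold), of Trp73 and Lhx1 (1.4-fold) and of Ebf2 and Ebf3 (3.73-fold) did not overlap. Those of Lhx1 and Ndnf, and of Ndnf and Ebf2, did overlap, so these genes were not told apart beyond the spread of the libraries. Lhx5 stood above Trp73 without overlap, by 1.19-fold. In the posterior mean estimates, however, Lhx5 was at 5.86 and 5.18 TPM and Trp73 at 4.93 and 5.31. These overlap, and in replicate 2 Trp73 was the higher. With 2 libraries of 1 group the smallest p of a two-sided exact sign-flip test is 0.5, so no test was made. Intervals and detection limits in the text cover counting error only.

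In all, 7 of the 8 genes reached 1 TPM in both libraries, the exception being Ebf3. Of 21474 protein-coding genes, 60.6% did so. The median level of the 8 genes was 4.07 TPM, beside 4.75 TPM for all protein-coding genes. Among protein-coding genes at 1 TPM or more in both libraries the median was 20.9 TPM. The share at 1 TPM rests on 8 genes, with Calb2 and Nhlh2 in its upper part and the remaining 6 genes between 0.565 and 5.64 TPM.

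Most Trp73 RNA was assigned to the N-truncated form. Trp73-205, a complete transcript of 4752 bases from the internal start, was at 3.58 and 4.67 TPM, which was 78.0 and 95% of the gene's TPM (86.5 ± 12.0%, n = 2). Trp73-204, the complete full-length transcript, was at 0.650 and 0.25 TPM, or 14.1 and 5.01%. Trp73-206, an annotated fragment with an incomplete end that starts upstream of the internal start, was at 0.360 TPM in replicate 1, from 4.4 reads, and had none in replicate 2. The 4 transcripts Trp73-201, Trp73-202, Trp73-203 and Trp73-207, of which the first 3 also start internally, had no reads assigned in either library.

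Summed by start, the internal forms exceeded the upstream ones by 3.54-fold in replicate 1 and 18.7-fold in replicate 2. The direction was shared by both libraries, while the size of the ratio differed between them (log2 3.02 ± 1.70). Against Trp73-204 alone the ratios were 5.51 and 18.7. The bounds deposited with Trp73-205, whose confidence level was not stated, ran from 2.76 to 3.93 TPM in replicate 1 and from 3.93 to 4.93 in replicate 2. Those of Trp73-204 ran from 0.247 to 1.16 and from 0.0351 to 0.540. In each library the lower bound of the N-truncated transcript thus lay above the upper bound of the full-length one. In posterior means the internal forms held 73.2 and 88.4% and the upstream forms 23.5 and 8.25%.

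**Figure D2:**
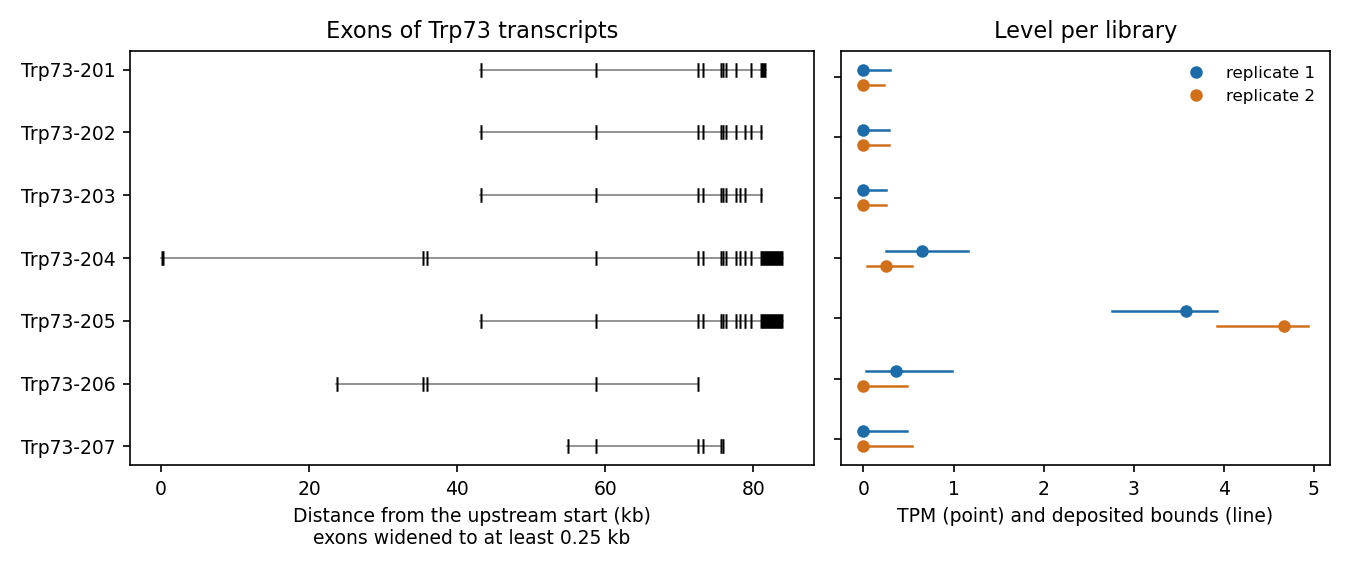
Left, exons (black) of the 7 Trp73 transcripts by distance in kilobases from the upstream start, with exons drawn at least 0.25 kb wide; right, TPM of each transcript in the 2 libraries (points) with the deposited lower and upper bounds (lines). Trp73-205, which starts at the internal start, lies above every other form in both libraries.

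The division between these forms rests on a small part of the RNA. Trp73-204 and Trp73-205 share 4472 exonic bases, 94.1% of the shorter form, and only 280 bases are particular to Trp73-205 and 570 to Trp73-204. All 280 bases of the first kind also lie in exons of Trp73os, an antisense gene on the opposite strand, which was at 0.110 and 0.260 TPM, from 5 and 12 reads. No source states whether counting used strand, so reads of Trp73-205's own exon and of Trp73os cannot be told apart. Whether uneven coverage along the gene moved the shares was not tested.

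The other genes with several annotated transcripts were also led by 1 form, with shares that differed between the libraries. Ebf2 was divided most: Ebf2-203 held 61.0 and 69.8% of its TPM, Ebf2-202 24.0 and 24.9%, and Ebf2-201 15 and 2.69%, and these 3 have coding sequences of equal length (1725 bases). The share of Ebf2-202 differed little between the libraries, while that of Ebf2-201 rested on 30.6 and 5.3 reads. For Ebf3, Ebf3-201 held 100 and 77.6% and Ebf3-202 the remaining 22.4% in replicate 2, from 14.8 reads. In posterior means Ebf3-201 held 54.5 and 49.7%, so the forms of this weakly expressed gene were not resolved.

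Lhx1 was mostly Lhx1-201, with 89.0 and 100%, and Lhx1-204 held 11.0% in replicate 1 from 11.4 reads. Ndnf-201 held 68.6 and 100% of Ndnf. The remainder in replicate 1, 31.4%, was Ndnf-202, a transcript of 527 bases annotated as a retained intron, at 1.09 TPM from 10.9 reads, against 0 reads in replicate 2. Calb2, Nhlh2 and Lhx5 have 1 transcript each in the tables.

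**Figure D3:**
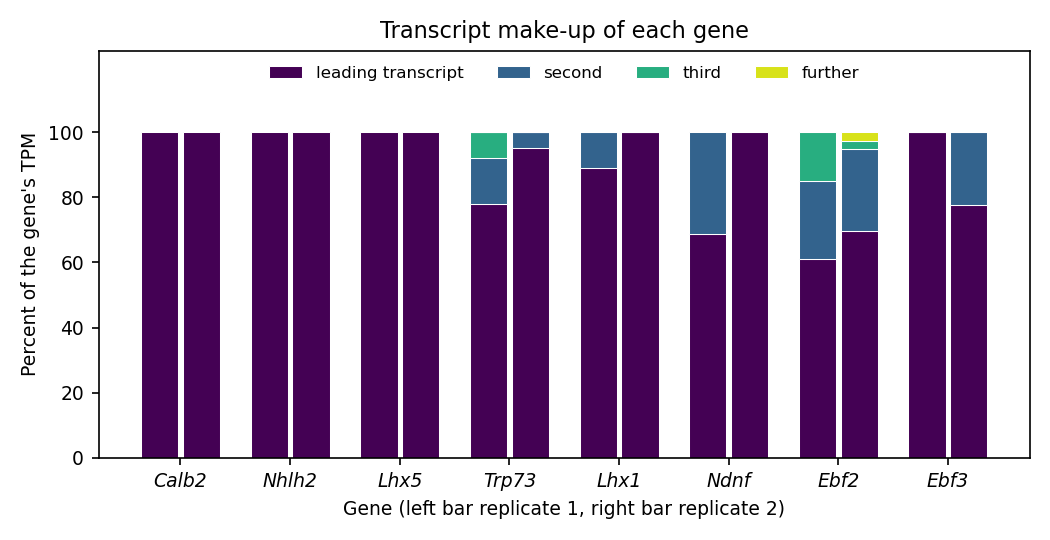
Percent of each gene's TPM held by its transcripts, stacked, with replicate 1 on the left and replicate 2 on the right of each pair. Trp73, Lhx1, Ndnf, Ebf2 and Ebf3 divide differently in the 2 libraries, and Calb2, Nhlh2 and Lhx5 have 1 transcript.

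Levels of the 8 genes were close in the 2 pools, with Lhx1 and Ndnf as the widest exceptions. By TPM, 5 genes were higher in replicate 2 and 3 in replicate 1. Of 21474 protein-coding genes, 7633 were higher in replicate 2 and 9470 in replicate 1. Only Ndnf differed by more than 1.5-fold (1.68-fold, log2 ratio of replicate 2 over replicate 1 of -0.75). That is 1 of 8, and 12.4% of the 19165 mouse genes with 10 or more summed reads passed the same limit. The difference in Ndnf followed the short retained-intron transcript: Ndnf-201 alone was at 2.38 and 2.06 TPM (log2 -0.21). Reads of the whole gene, 267 and 204, gave log2 -0.25 after scaling by library total (95% exact binomial interval -0.52 to 0.02).

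Lhx1 was lower in replicate 2 by each measure used. Its reads numbered 325 and 224, for a log2 ratio of -0.40 (-0.65 to -0.15), beside -0.53 for TPM and -0.36 for Lhx1-201 alone. Scaled to the spike-ins, the ratio was -0.20 and its interval, -0.45 to 0.05, held 0. Calb2 and Trp73 were higher in replicate 2 by reads, at log2 0.12 (0.03 to 0.21) and 0.21 (0.03 to 0.40). With this scaling the intervals of Lhx5, Ebf2, Ebf3, Ndnf and Nhlh2 held 0. Spike-in scaling raised all ratios by 0.20, which turned Lhx5 from -0.16 to 0.04. The intervals of Ebf2 (0.01 to 0.58), Ebf3 (0.02 to 1.10) and Nhlh2 (0.15 to 0.39) then left out 0, on the side of replicate 2. Ebf3-201 alone gave -0.03 where Ebf3 as a gene gave 0.33.

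**Figure D4:**
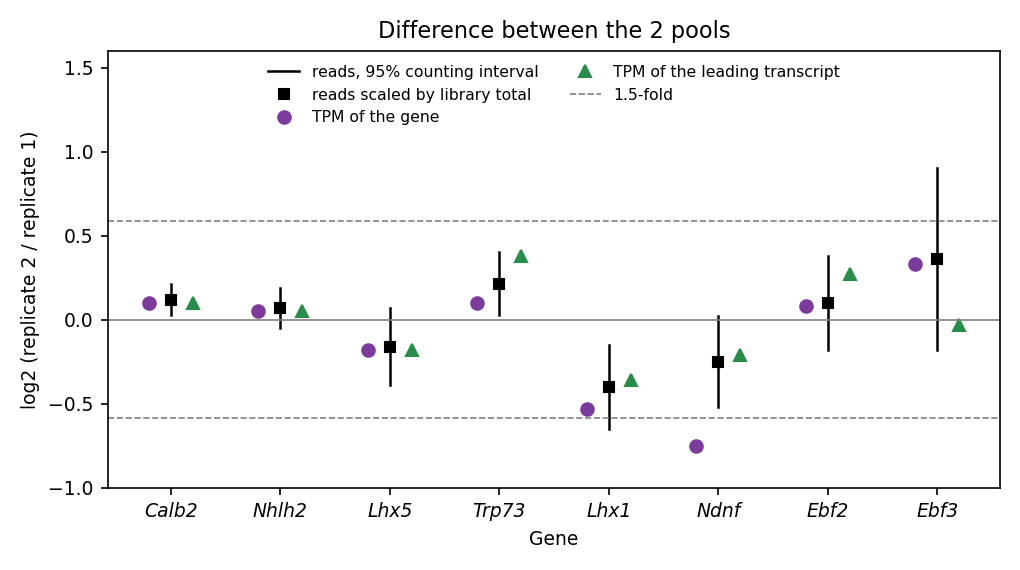
Log2 ratio of replicate 2 over replicate 1 for each gene, from TPM (circles), from reads scaled by library total with the 95% counting interval (squares and lines) and from the leading transcript's TPM (triangles), with dashed lines at 1.5-fold. Lhx1 lies below 0 by all 3 measures, and the TPM of Ndnf lies below the lower dashed line while its reads and leading transcript do not.

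The summed markers of some other tissues were higher in replicate 1. The 8 genes of multiciliated cells and choroid plexus, where Trp73 also acts, summed to 836 TPM in replicate 1 and 374 in replicate 2, with all 8 higher in replicate 1. That sum was mostly Ttr (761 and 331), then Folr1 (25.2 and 15.6), and Gmnc, a regulator of multiciliated cells, was lowest at 0.180 and 0.0400. Genes of the hypothalamus and mammillary region summed to 24.1 and 17.3 TPM. Of these, 4 of 8 were at 1 TPM or more in both libraries, beside 60.6% of protein-coding genes. They were led by Nkx2-1 (9.18 and 6.8) and Pomc (8.80 and 3.89), with Sim2 lowest at 0.0200 and 0.0300. Thalamic and prethalamic genes differed the other way, with 245 and 296 TPM and 7 of 8 higher in replicate 2. Trp73 and Calb2 were higher in replicate 2, each by 1.07-fold in TPM. The part of these tissues in the levels of the 8 genes was not tested.

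Other genes linked to Cajal-Retzius neurons were present at a higher median than the 8. All 13 reached 1 TPM in both libraries, as did 60.6% of protein-coding genes, and their median was 11.8 TPM. Reln, the gene of Reelin, was at 38 and 36.1 TPM, and the deep-layer and Cajal-Retzius factor Tbr1 at 50.4 and 50.9. The cell-cycle inhibitor Cdkn1a was at 38 and 37.8 TPM and the proteoglycan Spock1 at 28.6 and 28.9. The homeobox genes Emx2 (12.2 and 16.4) and Lhx9 (16.7 and 20.3) were higher in replicate 2.

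The zinc-finger genes Zic1 (8 and 8.11) and Zic2 (7.73 and 6.95), active in the septum and hem, stood close together. Cxcr4, the receptor of the meningeal chemokine that holds Cajal-Retzius neurons at the surface, was at 8.87 and 9.13 TPM and Car10 at 8.75 and 7. Nhlh1 was at 3.2 and 3.8, and the netrin receptor gene Unc5b was lowest, at 2.32 and 2.47. Many of these genes are also expressed in cortical neurons or progenitors, so their levels are not those of Cajal-Retzius neurons.

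Genes of the regions where Cajal-Retzius neurons arise ranged from under 1 TPM to over 30. Of 13, 8 reached 1 TPM in both libraries, a share near the 60.6% of all protein-coding genes, and the median was 2.00 TPM. The secreted Wnt modulators Sfrp2 (32.7 and 33.1) and Rspo3 (26.7 and 20.5) were highest and the hem ligand Gdf7 lowest, at 0.160 and 0.110 TPM. The hem genes Wnt3a (1.78 and 0.960) and Lmx1a (3.05 and 2.16) were higher in replicate 1, and Dbx1, of the septum and the pallial border, was at 1.24 and 1.54. In all, 9 of the 13 were higher in replicate 1, as were 9470 of 21474 protein-coding genes against 7633 that were higher in replicate 2.

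Each of the 8 genes except Ndnf, for which no family was listed, was set beside its paralogs. In the p53 family Trp73 was far below Trp53 (93.4 and 94.7 TPM), by a log2 ratio of -4.31 ± 0.05, or 19.8-fold, and far above Trp63 (0.110 and 0.130), which rested on 9 and 11 reads. Trp53, the tumour suppressor itself, is expressed broadly. In the LIM-homeobox family Lhx5 exceeded Lhx1 in both libraries, by log2 0.58 and 0.93 (0.75 ± 0.25, 1.66-fold). Both were well below Lhx2 (75.6 and 91.8), a regulator of cortical progenitors, and Isl1 (54.2 and 48.0), of striatal neurons. Lhx3 was lowest of the 12, with 4 reads in replicate 1 and 0 in replicate 2.

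Ebf2 and Ebf3 were the lesser members of their family. Ebf3 was below Ebf2 by log2 -1.91 ± 0.18, or 3.73-fold, in both libraries. Ebf1, a factor of striatal neurons, was at 29.4 and 36.8 TPM and Ebf4 at 3.17 and 3.33. Nhlh2 exceeded Nhlh1 by log2 2.20 ± 0.14, or 4.57-fold. Calb2 exceeded Calb1, the calbindin gene, which was at 21.5 and 19.0 TPM, by log2 1.76 ± 0.20, or 3.38-fold. Of the other EF-hand genes, secretagogin, Scgn, was at 1.37 and 3.26 TPM. No read of Pvalb was assigned in either library, and 3 reads would be 0.148 TPM in replicate 1 and 0.161 in replicate 2. These 5 ratios of TPM were larger than the spread between the libraries. On counts not corrected for length, Lhx5 over Lhx1 was log2 0.24, less than the SD of 0.25 of its TPM ratio, and Calb2 over Calb1 was 0.54.

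**Figure D5:**
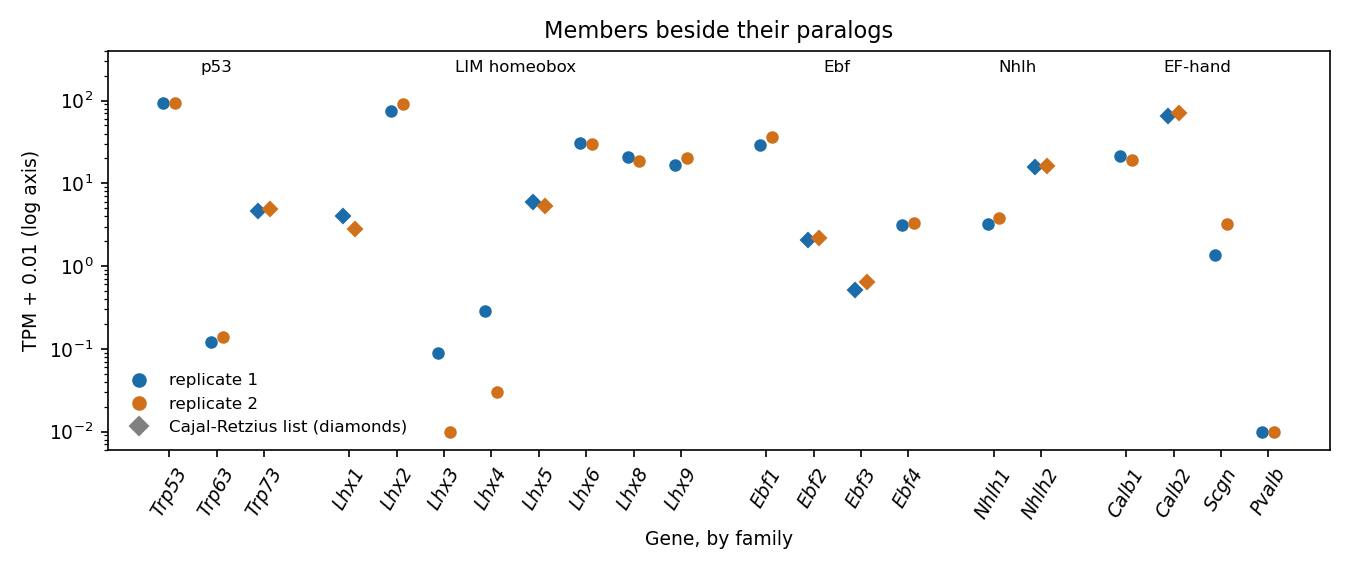
TPM plus 0.01, on a log axis, of the genes of 5 families in the 2 libraries, with genes of the Cajal-Retzius list as diamonds. Trp73 lies between Trp53 and Trp63, Ebf3 lowest of the Ebf genes, and Calb2 and Nhlh2 highest of their families.

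Markers of other cell types that can express some of the 8 genes were present in these libraries. Their counts at 1 TPM stand beside the 60.6% of protein-coding genes that reached it in both libraries. Of 6 genes of caudal interneurons, which can make calretinin, 5 reached 1 TPM in both libraries, with Nr2f2 at 57.6 and 47.0 TPM and Sp8 at 12.5 and 12.1. Vip was not detected at this depth (0 reads, where 3 would be 0.0898 TPM in replicate 1 and 0.0977 in replicate 2). All 8 thalamic and prethalamic genes passed, led by Tcf7l2 (78.0 and 107), with Rora lowest at 9.75 and 10.1. All 7 striatal genes passed, led by Meis2 (129 and 138) and Foxp1 (84.3 and 91.0), with Gpr6 lowest at 2.02 and 1.28. All 6 mesenchymal and all 6 endothelial genes passed, with sums of 157 and 164 TPM and of 140 and 149 TPM. The first were led by Col3a1 (67.1 and 72.8) and Dcn (31.1 and 35.7), with Foxc1 lowest (1.27 and 1.46), and the second by Cldn5 (72.0 and 78.2) and Esam (28.6 and 28.3), with Tek lowest (5.79 and 6.30). The medians of the interneuron and thalamic lists were 9.25 and 26.2 TPM. The part of each cell type in the level of Calb2 was not tested.

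Genes of olfactory epithelium and sensory ganglia had low summed levels. Of 5 olfactory epithelium genes, 1 reached 1 TPM in both libraries (Gng8, at 1.51 and 1.30), Omp was at 0.380 and 0.390, and Gfy had 0 reads in both. Of 6 sensory ganglion genes, 1 did so (Pou4f1, at 2.11 and 2.54), beside 60.6% of protein-coding genes. Their sums were 2.13 and 1.88 TPM, and 4.27 and 4.83 TPM. The part of these tissues in the levels of the 8 Cajal-Retzius genes was not tested.

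The reads of the 8 genes could largely be placed. For Lhx1, Lhx5, Calb2, Ndnf and Nhlh2 no window of 100 bases in the leading transcript occurred in a transcript of another gene in GENCODE M21. For Trp73, Ebf2 and Ebf3 the windows that did occur elsewhere, 3.91, 4.58 and 1.71% of the total, were all in genes on the opposite strand: Trp73os, Gm10860 and Gm45278. Gm10860 had 0 reads in both libraries. Gm45278, which shares 355 exonic bases with Ebf3, was not among the measured genes, so its reads could not be counted apart from those of Ebf3. Lhx5 shares 69 exonic bases with the antisense gene Gm27199, which was at 6.35 and 3.92 TPM, a level like that of Lhx5 itself.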

How the data were processed

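Total RNA of 2 embryo pools was profiled, with 1 gene and 1 transcript table per library. Per the deposited notes, the genome was mm10, the annotation GENCODE M4, and values derive from transcriptome alignments. No source used here names the aligner, the quantifier or the strand setting. The deposited expected counts are estimated reads and need not be whole; they were rounded for intervals. The deposited TPM values are corrected for effective length (length minus 99) and scaled over all entries, spike-ins included. The deposited percent values give a transcript's share of its gene. Bounds of transcript TPM were used as deposited.

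Names, types, coordinates and transcript sequences came from GENCODE M21, also on mm10, whose models differ in part (Ndnf-201 has 4705 bases in M4 and 10101 in M21). Promoters came from RefSeq (4 of the 8 genes matched).

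Means and SDs cover 2 libraries, detection means 1 TPM in both, detection limits are 3 reads, and intervals are exact binomial at 95%. Alternatives used TMM factors (edgeR 4.0.16), DESeq2 1.42.0 size factors and spike-ins. The ratio step was tested on simulated data with counting error only, so variation between pools was not covered. R 4.3.3, Python 3.11.15 and scipy 1.17.1 were used.

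The 8 genes and all 17 lists were chosen with earlier results of these data known. Named genes are the 8, all of the further Cajal-Retzius, p53, Ebf, Nhlh and EF-hand lists, the highest 2 and the lowest of other lists, those at 0, overlapping genes, all Trp73 transcripts and transcripts at 5% or more of a gene; Wnt3a, Lmx1a, Lhx4 and Dbx1 were named after their values were seen. Some genes that the rule names are not reported here.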

Additional observations from a re-analysis of the deposited data

How the results depend on the processing

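No paired analysis was possible because the labels give 1 group. Among the counts, ratios and the Trp73 share that answer a comparison, 36 alternative values stayed within the library spread or 1.5-fold of a count, 13 did not, and no paralog ratio turned direction. With 2 libraries, leaving out 1 always moves a mean level, ratio or share by less than its SD. Those settings could therefore only count as staying within the spread, here and among the single levels and shares below. The ratios of single genes between the pools, not among these values, turned for Lhx5 with spike-in scaling (-0.16 to 0.04) and for Ebf3 by its leading transcript (0.33 to -0.03). Without length correction the log2 ratio was 0.24 for Lhx5 over Lhx1, 2.66 for Nhlh2 over Nhlh1, 0.54 for Calb2 over Calb1 and -2.89 for Trp73 over Trp53. A pseudocount of 1 TPM gave -0.99 for Ebf3 over Ebf2, 1.92 for Nhlh2 over Nhlh1 and -4.05 for Trp73 over Trp53, which posterior means put at -4.17. The number of genes past 1.5-fold between the pools was 1 by TPM and 0 with TMM factors, DESeq2 size factors, spike-in scaling or a 2-fold limit, and also 0 by the leading transcript, an alternative chosen after seeing the data. For single levels, shares and list medians, 79 alternative values stayed within the spread and 16 did not. Leaving out 1 library, the internal share of Trp73 was 78.0 or 95%, and 7 genes reached 1 TPM in either library alone. Low reads limit Ebf3 and the lesser transcripts of Trp73, Lhx1, Ndnf and Ebf2 most.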

Other observations

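RefSeq's table also held promoters of Nhlh2, Lhx1 and Ebf3, and these differed widely in composition. The 250 bases before RefSeq's start held 2 CG dinucleotides for Nhlh2 (42.0% G or C), 26 for Lhx1 (64.8%) and 43 for Ebf3 (80.0%). The Nhlh2 window ended at position 102010144, past the GENCODE start of the gene at 102010076, so part of it lies inside the gene. Of the 32851 windows, 18.8% held fewer than that of Nhlh2, 90.4% fewer than that of Lhx1 and 99.3% fewer than that of Ebf3. Nhlh2 was the highest of the 3 genes at 16 TPM and Ebf3 the lowest at 0.565 TPM; with 3 genes this is a description only.

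Of the EF-hand calcium-binding genes, Scgn differed most between the pools, with 42 reads in replicate 1 and 92 in replicate 2 (log2 1.27 after scaling by library total, 95% exact binomial interval 0.73 to 1.84), while Calb2 differed by 0.12. Among the LIM-homeobox genes, Lhx4 was lower in replicate 2, at log2 -2.77 (-5.94 to -0.66) from 15 and 2 reads. Lmx1a was also lower in replicate 2, at log2 -0.48 (-0.78 to -0.18), next to Lhx1 at -0.40, and Lhx9 and Lhx2 were higher, at 0.33 (0.22 to 0.44) and 0.24 (0.18 to 0.30).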
